A study of Homo sapiens with 24 samples.

Results

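The genes described here are 9 members of the oxidative stress (NRF2) response: HMOX1, NQO1, GCLC, GCLM, TXNRD1, SRXN1, OSGIN1, PGD and TXN. They were taken by name, as every probe on the array that carries one of these gene symbols and is not a control, out of 36337 gene names on the array and 20700 genes tested. Each member had 1 probe, and the HMOX1 probe was printed as 10 spots. All 9 probes were well above background on all 24 arrays, so all 9 members passed the filter on dim probes and none was saturated.

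The cells were HT29, an established human colon adenocarcinoma line. They were left untreated (NT) or treated for 6 h with C3/C2, a mixture of 30 mM propionate and 15 mM acetate, with SN, the culture supernatant of the dairy bacterium Propionibacterium freudenreichii diluted 1/2, in which both acids are the main metabolites, with TRAIL, a death ligand of the TNF family given at 100 ng/ml together with the anti-Flag M2 antibody at 2 μg/ml, or with TRAIL+C3/C2 or TRAIL+SN. Each of the 6 groups had 4 arrays, from 2 independent experiments in duplicate by the study's methods, and every group is the same single cell line. The arrays lay on 4 slides. NT and C3/C2 shared slides 1 and 2, SN and TRAIL lay on slide 3, and both co-treatments lay on slide 4, so outside C3/C2 the effect of a treatment against NT and that of its slide cannot be told apart. TRAIL can kill these cells, and in bulk RNA a change in which cells remain and a change in RNA per cell cannot be told apart either.

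NRF2, the product of NFE2L2, is a transcription factor that cells hold at a low level while KEAP1 binds it and hands it to a ubiquitin ligase. Electrophiles and oxidants change KEAP1 so that NRF2 escapes, pairs with a small MAF protein and binds the antioxidant response element in its target genes, while BACH1, which competes for the same element with the same partners, represses several of them. The targets include enzymes of haem breakdown, quinone reduction, glutathione synthesis, the thioredoxin system and NADPH supply, and the colon epithelium uses them against reactive compounds from food and bacteria.

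A level here is the log2 intensity of the probe minus the 75th percentile of its array, so that 0 is the brightness of a spot at that percentile. A probe's levels are compared between samples only, and not with those of another probe. A gene was called when its fold change was at least 2 and its limma p-value, adjusted by Benjamini-Hochberg over all genes tested, was under 0.05. Genes are written as having risen or fallen where that adjusted p was under 0.05, whatever the fold change. The labels do not say which arrays are duplicates of the same experiment, so the p-values measure the spread between these arrays, which may in part be technical. The 10 defining markers of colon epithelial cells on the list used, among them EPCAM, VIL1 and CDX2, were above background on all 24 arrays, and 2 of 4 leukocyte markers (PTPRC and CD14) and 3 of 3 endothelial markers were above it on all too. Of 5 fibroblast markers, COL1A2, COL3A1 and DCN were above it on none, PDGFRB on 1 array and COL1A1 on 16, and of 2 red cell markers HBB was above it on none and HBA2 on 23. The part of these signals of other cell types in the results was not tested. Arrays were brightest in NT and dimmest in TRAIL+C3/C2, where the median 75th percentile was 883 and 503 in units of intensity.

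The letters of the antioxidant response element core were searched in the promoters that RefSeq lists on GRCh38.p14, from 250 bases before the start of a gene to 50 after it. HMOX1 was not in this table. The core was written as TGACNNNGC and read on both strands, and it stood in the promoters of GCLM, TXNRD1 and PGD among the 8 members with a promoter in the table, against 13.3% of all 35116 promoters. The AP-1 site, written as TGANTCA, stood in the promoter of OSGIN1 alone among the 8, against 7.7% of all promoters. A member was counted if any promoter listed for it held a match, while both percentages are shares of single promoters. The counts of members and these percentages are thus not like for like. A stretch with these letters is shown here for each of the genes, with 1 match in capitals, since the members that carry them moved in different directions in the values that follow; KEAP1, the inhibitor of NRF2, was added after its values were seen.
GCLM, chr1:93909431-93909490, minus strand: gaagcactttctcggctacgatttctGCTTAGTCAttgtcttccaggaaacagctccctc
KEAP1, chr19:10502772-10502831, minus strand: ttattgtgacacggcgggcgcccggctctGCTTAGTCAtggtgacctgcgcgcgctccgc
TXNRD1, chr12:104215654-104215713, plus strand: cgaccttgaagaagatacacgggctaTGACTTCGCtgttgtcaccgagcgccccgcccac
PGD, chr1:10398837-10398896, plus strand: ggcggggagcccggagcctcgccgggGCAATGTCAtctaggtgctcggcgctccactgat
OSGIN1, chr16:83953117-83953176, plus strand: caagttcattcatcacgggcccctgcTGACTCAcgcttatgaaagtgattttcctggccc
The GCLM and KEAP1 matches have the same 9 letters, GCTTAGTCA, which is the core read on the other strand, and the KEAP1 stretch holds a second match, left in lower case, upstream of the first. TXNRD1 had 2 more matches that are not shown, GCTCCGTCA in the same promoter and GCTTTGTCA in another promoter listed for the gene. A match says only that these letters are present in this window, and the window does not hold distant enhancers.

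The members did not move as 1 group. HMOX1 rose with C3/C2, with SN and with both co-treatments, NQO1 fell with the same 4 treatments, OSGIN1 fell most with C3/C2, and TXNRD1 rose most with TRAIL+SN and SN. The other 5 members stayed within a fold change of 2 in every treatment, apart from a PGD difference of -1.05 with TRAIL+SN when arrays were scaled on their spike-in probes. With TRAIL alone no member reached that fold change.

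**Figure D1:**
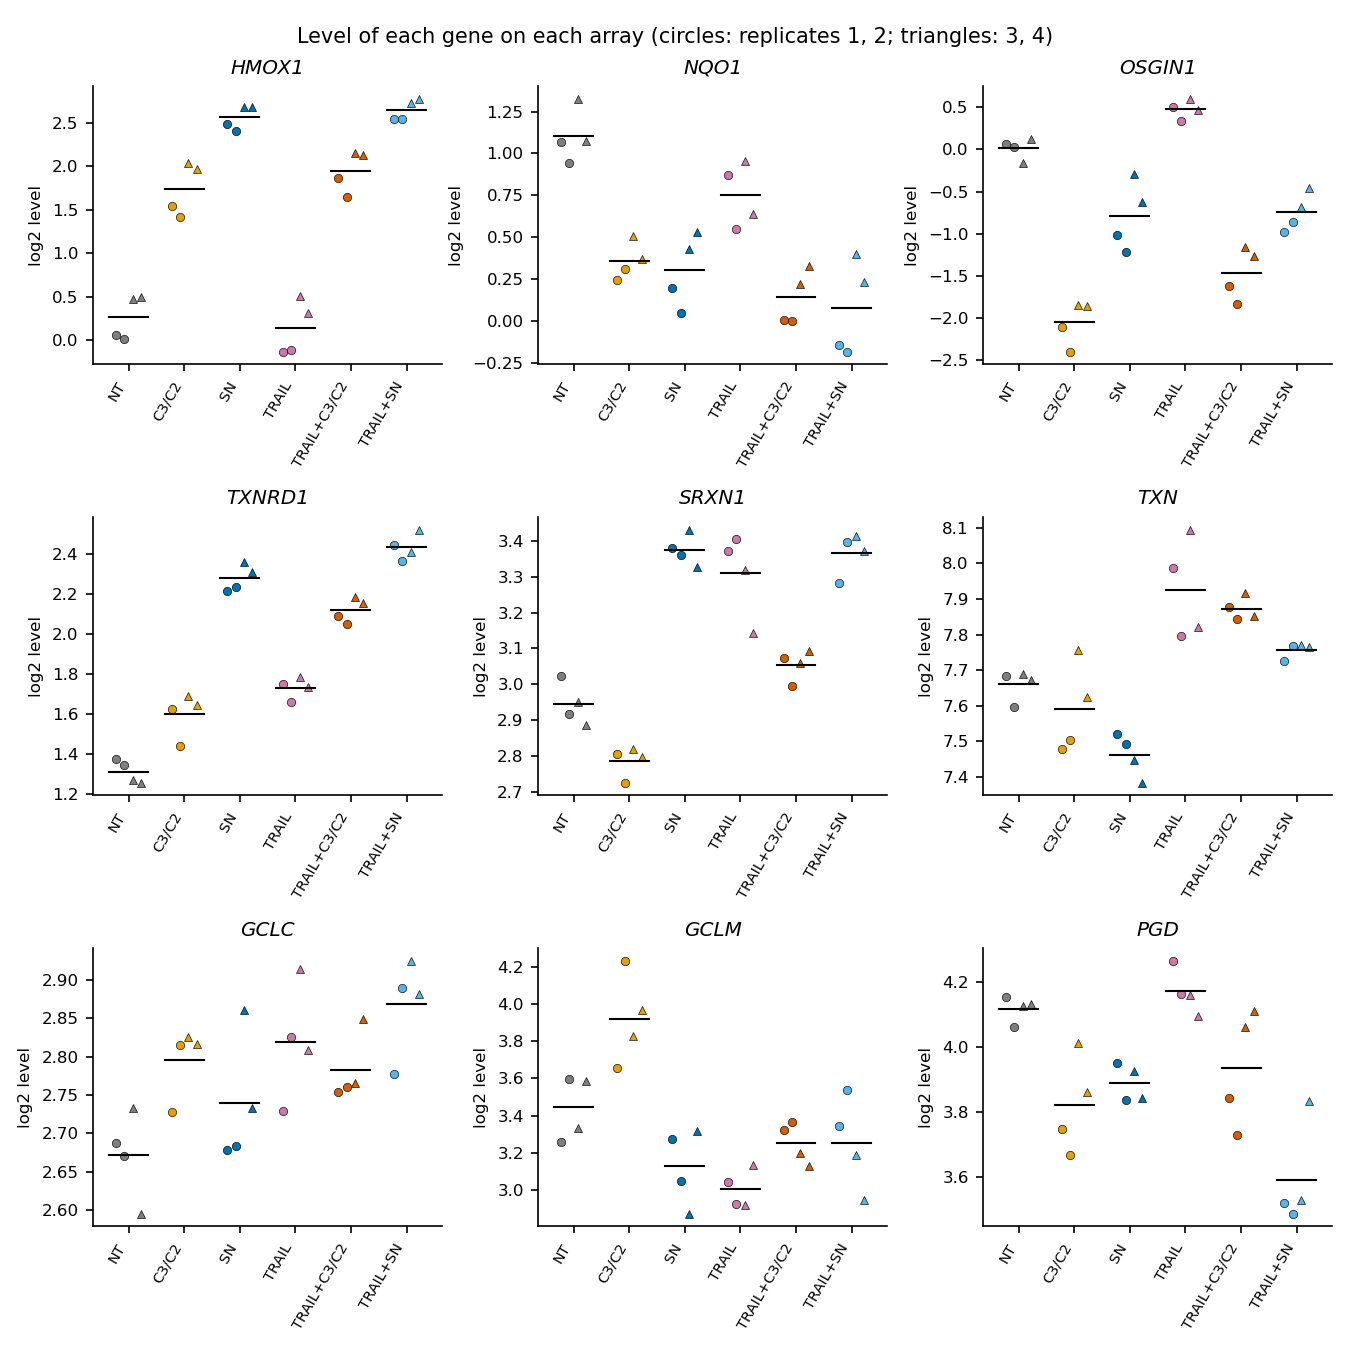
Level of each of the 9 genes on each of the 24 arrays, as log2 intensity relative to the array's 75th percentile (y axis, its own scale in each panel), in the 6 groups (x axis). Circles are replicates 1 and 2, triangles are replicates 3 and 4, and the line is the mean of 4 arrays; HMOX1 lies between 1.42 and 2.78 with C3/C2, SN and the co-treatments, above all NT and TRAIL arrays.

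HMOX1 encodes the inducible haem oxygenase, which breaks haem down to biliverdin, iron and carbon monoxide. Its probe lies at chr22:35790122-35790181 on hg19, on the plus strand, and the exon that it or any other probe lies in was not looked up, since the annotation used here is of another build. The levels on the 4 NT arrays were 0.07, 0.02, 0.47 and 0.50. With C3/C2 they were 1.55, 1.42, 2.03 and 1.97, and with SN 2.49, 2.41, 2.69 and 2.68. Both ranges lay wholly above NT, and all SN arrays lay above all C3/C2 arrays. The TRAIL arrays, at -0.13, -0.11, 0.51 and 0.32, overlapped NT. TRAIL+C3/C2 gave 1.86, 1.65, 2.16 and 2.13, and TRAIL+SN gave 2.55, 2.54, 2.73 and 2.78. The order of the groups was thus TRAIL, NT, C3/C2, TRAIL+C3/C2, SN and TRAIL+SN, in which TRAIL and NT overlapped, and so did C3/C2 with TRAIL+C3/C2 and SN with TRAIL+SN.

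HMOX1 rose 2.79-fold with C3/C2, by 1.48 ± 0.17 (SE) on the log2 scale (adjusted p = 8.74e-08), and 4.94-fold with SN, by 2.30 ± 0.17 (adjusted p = 7.23e-11). It rose 3.22-fold with TRAIL+C3/C2 (adjusted p = 1.01e-08) and 5.23-fold with TRAIL+SN (adjusted p = 3.61e-11). With TRAIL the difference was -0.12, with a 95% confidence interval of -0.46 to 0.23. When each array was scaled on its spike-in probes, the difference for TRAIL+C3/C2 was 0.97, just under a fold change of 2. On slide 3, which held SN and TRAIL, HMOX1 was 2.42 ± 0.17 higher on the log2 scale with SN than with TRAIL (adjusted p = 3.53e-11). Within slide 2 alone, the C3/C2 difference from NT was 1.48. The HMOX1 spots of an array, of which at least 6 of 10 were used, had an SD of 0.018 to 0.066 on the log2 scale, which is the technical spread within an array and not that between samples.

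NQO1 encodes a cytosolic reductase that takes quinones to hydroquinones in a single step and is one of the most used readouts of NRF2. Its probe lies at chr16:69744274-69744333 on hg19, on the minus strand. NT arrays had levels of 1.07, 0.94, 1.33 and 1.07, and TRAIL arrays overlapped them at 0.87, 0.55, 0.95 and 0.64. The levels were 0.25, 0.31, 0.51 and 0.37 with C3/C2 and 0.20, 0.05, 0.43 and 0.53 with SN. All of these lay below all NT arrays, and the ranges of C3/C2 and SN overlapped. TRAIL+C3/C2 gave 0.01, 0.00, 0.22 and 0.33 and TRAIL+SN gave -0.14, -0.18, 0.40 and 0.23.

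NQO1 fell by 0.74 ± 0.13 (SE) on the log2 scale with C3/C2 (adjusted p = 5.61e-05), by 0.80 with SN (adjusted p = 1.98e-05), by 0.96 with TRAIL+C3/C2 (adjusted p = 1.86e-06) and by 1.03 with TRAIL+SN (adjusted p = 7.01e-07). HMOX1 and NQO1 thus moved in opposite directions in the same 4 groups. The difference with TRAIL was -0.35, with an adjusted p of 0.0509. On slide 3, SN was lower than TRAIL, with a difference of -0.45 (adjusted p = 0.00563). The TRAIL+SN value passed a fold change of 2 by little: it lost the call when background was corrected by normexp (-0.90) and when NT replicate 3, TRAIL+SN replicate 1 or TRAIL+SN replicate 2 was left out (-0.95, -0.95 and -0.94). NQO1 gained the call in TRAIL+C3/C2 when NT replicate 2 or TRAIL+C3/C2 replicate 4 was left out (-1.01 and -1.02). Scaled on the array median, it passed that fold change with C3/C2 (-1.04) and with TRAIL+C3/C2 (-1.31), and on the spike-in probes with TRAIL+C3/C2 (-1.68).

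GCLC and GCLM encode the catalytic and the modifier subunit of glutamate-cysteine ligase, the rate-limiting enzyme of glutathione synthesis. Their probes lie at chr6:53362197-53362256 and chr1:94352810-94352869 on hg19, both on the minus strand. Of the 60 letters of the GCLM probe, a run of 20 is shared with 3 probes of other genes, so its signal may hold other transcripts, while no run of 20 letters of the other 8 members' probes was found in a probe of another gene. GCLC stayed between 2.60 and 2.92 on all 24 arrays. Its differences from NT ran from 0.07 with SN to 0.20 ± 0.05 with TRAIL+SN (adjusted p = 0.00232), and their direction depended on the scaling: with the spike-in probes the TRAIL+SN difference was -0.33.

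GCLM was one of 2 members, with SRXN1, that went opposite ways with C3/C2 and SN. NT arrays had 3.26, 3.59, 3.33 and 3.59, C3/C2 arrays had 3.66, 4.23, 3.83 and 3.96, and SN arrays had 3.27, 3.05, 2.87 and 3.32. The C3/C2 range lay above the NT range, and the SN range overlapped it. GCLM rose with C3/C2 by 0.48 ± 0.13 (SE, adjusted p = 0.00316), fell by 0.32 with SN (adjusted p = 0.0367) and fell by 0.44 with TRAIL (adjusted p = 0.0133). SN differed from C3/C2 by -0.79 ± 0.13 (adjusted p = 4.54e-05), and no array of either group overlapped the other. TRAIL+C3/C2 arrays were lower than the C3/C2 arrays, at 3.32, 3.36, 3.20 and 3.13, with a difference of -0.67 from C3/C2 (adjusted p = 0.000443), or -1.20 with the spike-in probes.

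TXNRD1, TXN and SRXN1 belong to the thioredoxin system. TXNRD1 is the cytosolic reductase that uses NADPH to reduce thioredoxin, TXN is thioredoxin itself, and SRXN1 is sulfiredoxin, which repairs over-oxidised peroxiredoxins. The TXNRD1 probe lies at chr12:104732949-104733008 on hg19, on the plus strand, the SRXN1 probe at chr20:627563-627622 and the TXN probe at chr9:113006449-113007066, both on the minus strand. The 60 letters of the TXN probe span 618 bases of genome and so cross an intron.

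TXNRD1 had levels of 1.38, 1.35, 1.27 and 1.26 in NT and of 2.21, 2.24, 2.36 and 2.31 with SN. C3/C2 arrays had 1.63, 1.44, 1.69 and 1.64 and TRAIL arrays 1.75, 1.66, 1.79 and 1.74. TRAIL+C3/C2 arrays had 2.09, 2.05, 2.19 and 2.16, and TRAIL+SN arrays 2.45, 2.37, 2.41 and 2.52. NT was below every other group, and only C3/C2 overlapped TRAIL in this order of NT, C3/C2, TRAIL, TRAIL+C3/C2, SN and TRAIL+SN. TXNRD1 rose by 0.29 ± 0.06 (SE) with C3/C2, 0.81 with TRAIL+C3/C2, 0.97 with SN, 1.12 with TRAIL+SN and 0.42 with TRAIL, with adjusted p-values from 0.00017 for C3/C2 to 2.7e-13 for TRAIL+SN. It was the only member past an adjusted p of 0.05 in the same direction in all 5 treatments. The TRAIL+SN value reached a fold change of 2.18, and it was under 2 when arrays were scaled on their median (0.93) or spike-in probes (0.60). With the spike-in probes the TRAIL+C3/C2 and TRAIL values came down to 0.09 and 0.15, neither past the test, and the SN value passed a fold change of 2 (1.04). The C3/C2 value was -0.01 when arrays were scaled on their median. On slide 3, TXNRD1 was 0.55 ± 0.06 higher with SN than with TRAIL (adjusted p = 3.13e-08).

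SRXN1 went apart from TXNRD1 with C3/C2. Its levels were 3.02, 2.92, 2.95 and 2.89 in NT, 2.81, 2.73, 2.82 and 2.80 with C3/C2 and 3.38, 3.36, 3.43 and 3.33 with SN. C3/C2 arrays thus lay below all NT arrays and SN arrays above them. SRXN1 fell by 0.16 ± 0.05 (SE) with C3/C2 (adjusted p = 0.0148) and rose by 0.43 with SN (adjusted p = 3.87e-07), by 0.36 with TRAIL (adjusted p = 2.94e-05) and by 0.42 with TRAIL+SN (adjusted p = 4.65e-07). Within slide 2 alone, on fewer arrays, the C3/C2 difference was -0.14 and did not pass the test (adjusted p = 0.156). The TRAIL+SN difference was -0.10 with the spike-in probes. With TRAIL+C3/C2 the difference was 0.11 (adjusted p = 0.073), and it was -0.60 with the spike-in probes.

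TXN stayed between 7.38 and 8.10 on all arrays, against 7.60 to 7.69 in NT. The SN arrays lay below all NT arrays at 7.52, 7.49, 7.45 and 7.38, and TXN fell by 0.20 ± 0.06 (SE) with SN (adjusted p = 0.00907). It rose by 0.26 with TRAIL (adjusted p = 0.00341) and by 0.21 with TRAIL+C3/C2 (adjusted p = 0.00651), and these values were -0.05 and -0.14 under quantile normalization.

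OSGIN1 encodes an oxidative stress-induced growth inhibitor. Its probe lies at chr16:83999149-83999208 on hg19, on the plus strand. NT arrays had levels of 0.07, 0.02, -0.16 and 0.12, and TRAIL arrays lay above them at 0.51, 0.34, 0.60 and 0.47. C3/C2 arrays had -2.10, -2.40, -1.84 and -1.86 and SN arrays -1.02, -1.22, -0.29 and -0.63. TRAIL+C3/C2 arrays had -1.62, -1.83, -1.16 and -1.27 and TRAIL+SN arrays -0.98, -0.86, -0.69 and -0.46. The means were lowest in the groups that received C3/C2, and the ranges of SN and TRAIL+C3/C2 overlapped by little.

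OSGIN1 fell by 2.06 ± 0.18 (SE) on the log2 scale with C3/C2, which is 4.18-fold (adjusted p = 1.66e-09, with -2.03 within slide 2 alone), and by 1.48 with TRAIL+C3/C2, which is 2.80-fold (adjusted p = 2.1e-07). The falls of 0.80 with SN (adjusted p = 0.000415) and 0.76 with TRAIL+SN (adjusted p = 0.000681) were under a fold change of 2, which the TRAIL+SN value passed with the spike-in probes (-1.29). With TRAIL alone OSGIN1 rose by 0.47 (adjusted p = 0.0492). SN lay 1.26 ± 0.18 above C3/C2 (adjusted p = 7.47e-06), and TRAIL+SN lay 0.72 above TRAIL+C3/C2 on the same slide (adjusted p = 0.00291).

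PGD encodes 6-phosphogluconate dehydrogenase, an NADPH-producing step of the pentose phosphate pathway. Its probe lies at chr1:10478911-10478970 on hg19, on the plus strand. The levels were 4.15, 4.06, 4.13 and 4.13 in NT and 3.52, 3.49, 3.53 and 3.83 with TRAIL+SN, with the latter range wholly below the former. PGD fell by 0.53 ± 0.09 (SE) with TRAIL+SN (adjusted p = 1.74e-05), by 0.30 with C3/C2 (adjusted p = 0.00571) and by 0.23 with SN (adjusted p = 0.0255). Within slide 2 alone, on fewer arrays, the C3/C2 difference was -0.26 and did not pass the test (adjusted p = 0.0754). The differences were -0.18 with TRAIL+C3/C2 and 0.05 with TRAIL, and neither passed the test.

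**Figure D2:**
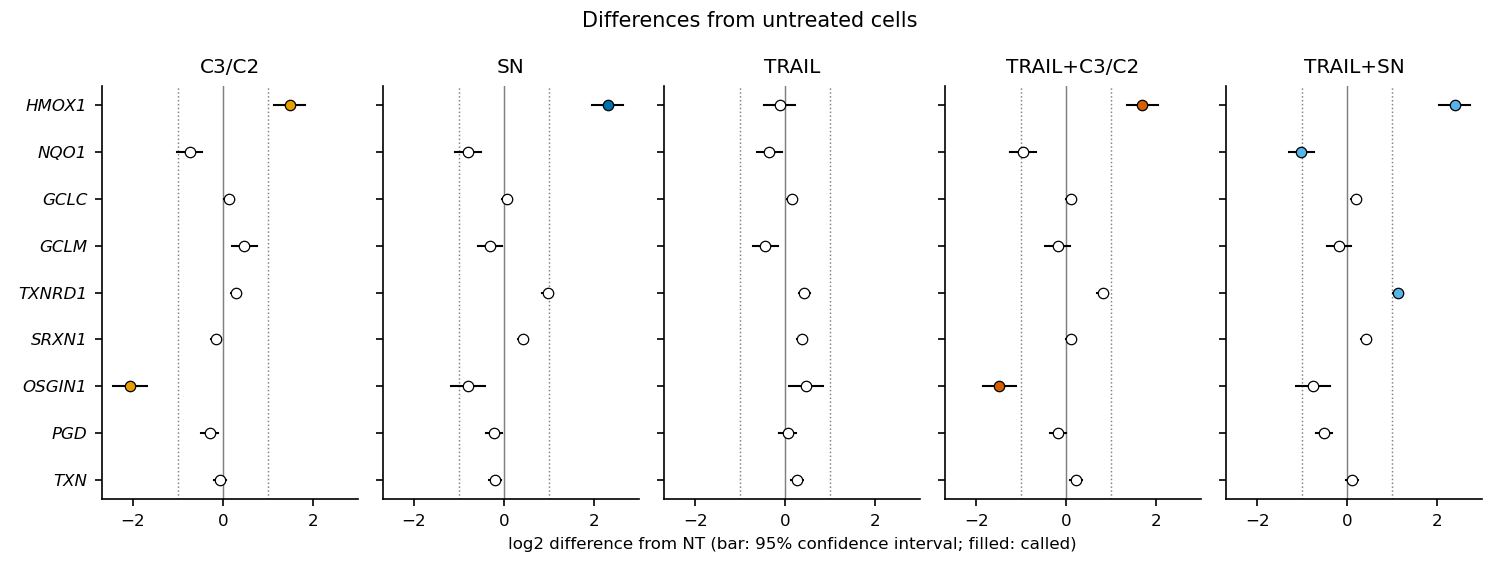
Log2 difference from NT (x axis) of the 9 genes (rows) in each of the 5 treatments (panels), with bars for 95% confidence intervals and filled points for genes called at a fold change of 2 and an adjusted p under 0.05; dotted lines mark a fold change of 2. HMOX1 is called higher in 4 panels, OSGIN1 lower in both panels that hold C3/C2, and TXNRD1 and NQO1 in the TRAIL+SN panel.

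Counted over the 9 members, 1 was called higher (HMOX1) and 1 lower (OSGIN1) with C3/C2, where 13.4% and 6.17% of all genes tested were called. With SN 1 was called higher and 0 lower, against 14.2% and 9.74% of all genes. With TRAIL+C3/C2 1 was called higher and 1 lower, against 16.3% and 7.93%. With TRAIL+SN 2 were called higher (HMOX1 and TXNRD1) and 1 lower (NQO1), against 16.1% and 10.1%. With TRAIL 0 were called in limma's test in either direction, against 0.749% and 2.18% of all genes. At an unadjusted p under 0.05 with no minimum fold change, 7 members passed with TRAIL. The share of all genes past an unadjusted p was not computed, for this or the later comparisons of the members. The counts of calls lie near the shares of genes at large, so they do not set the members apart.

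At an adjusted p under 0.05 without a minimum fold change, 8 of 9 members differed from NT with C3/C2 (4 higher and 4 lower, against 63% of all genes in either direction), 8 with SN (3 and 5, against 69.3%) and 6 with TRAIL (5 and 1, against 33.5%). The count was 5 with TRAIL+C3/C2 (3 and 2, against 69.4%) and 7 with TRAIL+SN (4 and 3, against 70.1%). In each treatment but TRAIL the members past the test were thus nearly evenly divided between the directions. With TRAIL 4212 of all genes were higher and 2717 lower. Of the 5 members higher there, GCLC and TXN turned direction on the spike-in probes, and TXNRD1 was no longer past the test. The median difference over the members was -0.07, 0.11, -0.20, 0.10 and 0.15 with C3/C2, TRAIL+C3/C2, SN, TRAIL+SN and TRAIL, beside medians of 0.08, 0.10, -0.02, 0.04 and 0.03 over all genes.

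Since SN contains the acids of C3/C2 and other bacterial products, the members were compared between both. SN was higher than C3/C2 for HMOX1 by 0.82 ± 0.17 (SE, adjusted p = 0.000354), for TXNRD1 by 0.68 ± 0.06 (adjusted p = 1.07e-08) and for SRXN1 by 0.59 ± 0.05 (adjusted p = 2.99e-08), beside the values for OSGIN1 and GCLM above. In these 5 members the arrays of SN and C3/C2 did not overlap, a count whose share over all genes was not computed. At an adjusted p under 0.05 without a minimum fold change, 4 members were higher and 1 lower, beside 4496 and 5318 of all 20700 genes. With that fold change 1 member, OSGIN1, was called higher and 0 lower, against 1.28% and 4.42% of all genes. NQO1, GCLC, PGD and TXN did not pass the test, and the 95% confidence interval of the NQO1 difference ran from -0.34 to 0.22. SN and C3/C2 lay on different slides. Between the co-treatments, which shared slide 4, TRAIL+SN was higher than TRAIL+C3/C2 for HMOX1 by 0.70 (adjusted p = 0.00207), for TXNRD1 by 0.31 (adjusted p = 0.000194) and for SRXN1 by 0.31 (adjusted p = 0.00011), and lower for PGD, with a difference of -0.34 (adjusted p = 0.00385). There 0 members were called in limma's test, against 0.976% of all genes higher and 2.56% lower, and 5 of 9 were past an adjusted and an unadjusted p of 0.05. At that adjusted p, 3298 of all 20700 genes were higher and 4491 lower. The GCLM difference on slide 4 was 0.00, with a 95% confidence interval of -0.27 to 0.27.

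The co-treatments were compared with the same treatment without TRAIL. Against C3/C2, TRAIL+C3/C2 was lower for GCLM, by the difference of -0.67 given above, and higher for TXNRD1 by 0.52 ± 0.06 (SE, adjusted p = 6.35e-07), for OSGIN1 by 0.58 (adjusted p = 0.0148), for TXN by 0.28 (adjusted p = 0.00187) and for SRXN1 by 0.27 (adjusted p = 0.000564), and 0 members were called in limma's test, against 1.59% of all genes higher and 2.14% lower, with 5 past an unadjusted p of 0.05. Against SN, TRAIL+SN differed past the test for TXN by 0.30 (adjusted p = 0.00279) and for PGD by -0.30 (adjusted p = 0.0209), with 0 members called in limma's test, against 0.908% and 0.164%, and 4 past an unadjusted p of 0.05. At an adjusted p under 0.05, 4415 of all 20700 genes were higher and 2919 lower in TRAIL+C3/C2 against C3/C2. In TRAIL+SN against SN, 2522 were higher and 1626 lower. HMOX1 differed by 0.21 and 0.08 in these comparisons, with 95% confidence intervals of -0.14 to 0.55 and -0.26 to 0.43. With the spike-in probes the HMOX1 differences were -0.33 and -0.51, and those of TXNRD1, SRXN1 and TXN between TRAIL+C3/C2 and C3/C2 were -0.01, -0.27 and -0.25, so no direction of what TRAIL added holds under both scalings for these genes. GCLM kept its direction and was called lower with the spike-in probes (-1.20). These comparisons also cross slides.

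The interaction terms asked whether the effect of TRAIL differed with and without the other treatment. For C3/C2 no member had an interaction past an adjusted p of 0.05 (2.88% of all genes did), and 1 of 9, GCLC, was past an unadjusted p of 0.05. For SN 4 of 9 members did, against 23.2% of all genes. The term was 0.56 ± 0.18 (SE) for GCLM (adjusted p = 0.0316), -0.37 ± 0.08 for SRXN1 (adjusted p = 0.00145), -0.35 for PGD (adjusted p = 0.0467) and -0.27 for TXNRD1 (adjusted p = 0.0218). TRAIL alone was above NT by 0.42 for TXNRD1 and 0.36 for SRXN1, while TRAIL+SN differed from SN by 0.15 (adjusted p = 0.0627) and -0.01 (adjusted p = 0.941). Over the settings tried, these differences of TRAIL from NT came down to 0.15 for TXNRD1 and 0.09 for SRXN1. The size of the interaction terms under other scalings is not given here.

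The genes that regulate NRF2 were then described. KEAP1 is the protein that keeps NRF2 low. Its single probe had levels of 2.25, 2.20, 2.21 and 2.26 in NT and of 2.18, 2.21, 2.26 and 2.12 with TRAIL. The C3/C2 arrays had 0.28, 0.23, 0.47 and 0.43, the SN arrays -0.43, -0.45, -0.16 and -0.27, the TRAIL+C3/C2 arrays 0.18, 0.04, 0.48 and 0.48 and the TRAIL+SN arrays -0.60, -0.64, -0.05 and -0.09. The 4 groups that received the acids or the supernatant lay far below NT and TRAIL, with no overlap. KEAP1 fell by 1.88 ± 0.12 (SE) on the log2 scale with C3/C2, which is 3.68-fold (adjusted p = 1.73e-11), and by 2.56 with SN, which is 5.90-fold (adjusted p = 9.23e-14). In the co-treatments it fell by 1.94 (TRAIL+C3/C2) and by 2.58 (TRAIL+SN), and with TRAIL the difference was -0.04, with a 95% confidence interval of -0.29 to 0.21. Its lowest and highest difference over the other settings were -2.18 and -1.82 for C3/C2 and -2.69 and -2.44 for SN.

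The only probe of NFE2L2 was above background on 1 of 24 arrays, an SN array, so the NRF2 transcript was not tested. MAFF, MAFG and MAFK are the small MAF partners of NRF2. MAFF was at -0.09, -0.13, -0.03 and 0.10 in NT, at -0.03, -0.16, 0.04 and -0.06 with C3/C2 and at 1.08, 0.96, 1.49 and 1.36 with SN, so that C3/C2 overlapped NT and SN did not. It rose by 1.26 ± 0.10 (SE) with SN (adjusted p = 1.82e-10), by 0.93 with TRAIL (adjusted p = 3.59e-07), by 1.43 with TRAIL+C3/C2 (adjusted p = 2.43e-11) and by 2.00 with TRAIL+SN (adjusted p = 9.16e-14). The C3/C2 difference was -0.02, with a 95% confidence interval of -0.21 to 0.18. MAFK rose by 0.65, 1.07, 1.00, 1.14 and 0.30 with C3/C2, TRAIL+C3/C2, SN, TRAIL+SN and TRAIL. With the spike-in probes the TRAIL+C3/C2 values of MAFF and MAFK came down to 0.71 and 0.36, and that of MAFK with TRAIL+SN to 0.62. MAFG rose by 0.59 with SN and 0.81 with TRAIL+SN, and with TRAIL+C3/C2 its difference of 0.20 was -0.52 with the spike-in probes.

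BACH1, the repressor that competes with NRF2, rose in all 5 treatments, from 0.29 with C3/C2 (adjusted p = 0.00278) to 0.95 with TRAIL+SN (adjusted p = 5.85e-10). A second BACH1 probe gave larger differences, of 1.04 with C3/C2 and 1.82 with TRAIL+SN, and the first gave -0.01 with C3/C2 when arrays were scaled on their median. SQSTM1 encodes p62, an autophagy receptor that binds KEAP1. It had 5.44, 5.27, 5.43 and 5.53 in NT, 5.25, 5.11, 5.43 and 5.43 with C3/C2 and 6.98, 7.06, 6.87 and 7.04 with TRAIL+SN. It rose by 0.82 ± 0.08 with SN, 0.92 with TRAIL, 1.57 with TRAIL+SN and 1.00 with TRAIL+C3/C2, and was -0.11 with C3/C2 (adjusted p = 0.233). The TRAIL+C3/C2 value lay just under a fold change of 2, was 0.28 with the spike-in probes and 0.65 with the array median, and passed that fold change without NT replicate 1, 3 or 4 or TRAIL+C3/C2 replicate 1 or 2 (1.01, 1.00, 1.03, 1.03 and 1.03).

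**Figure D3:**
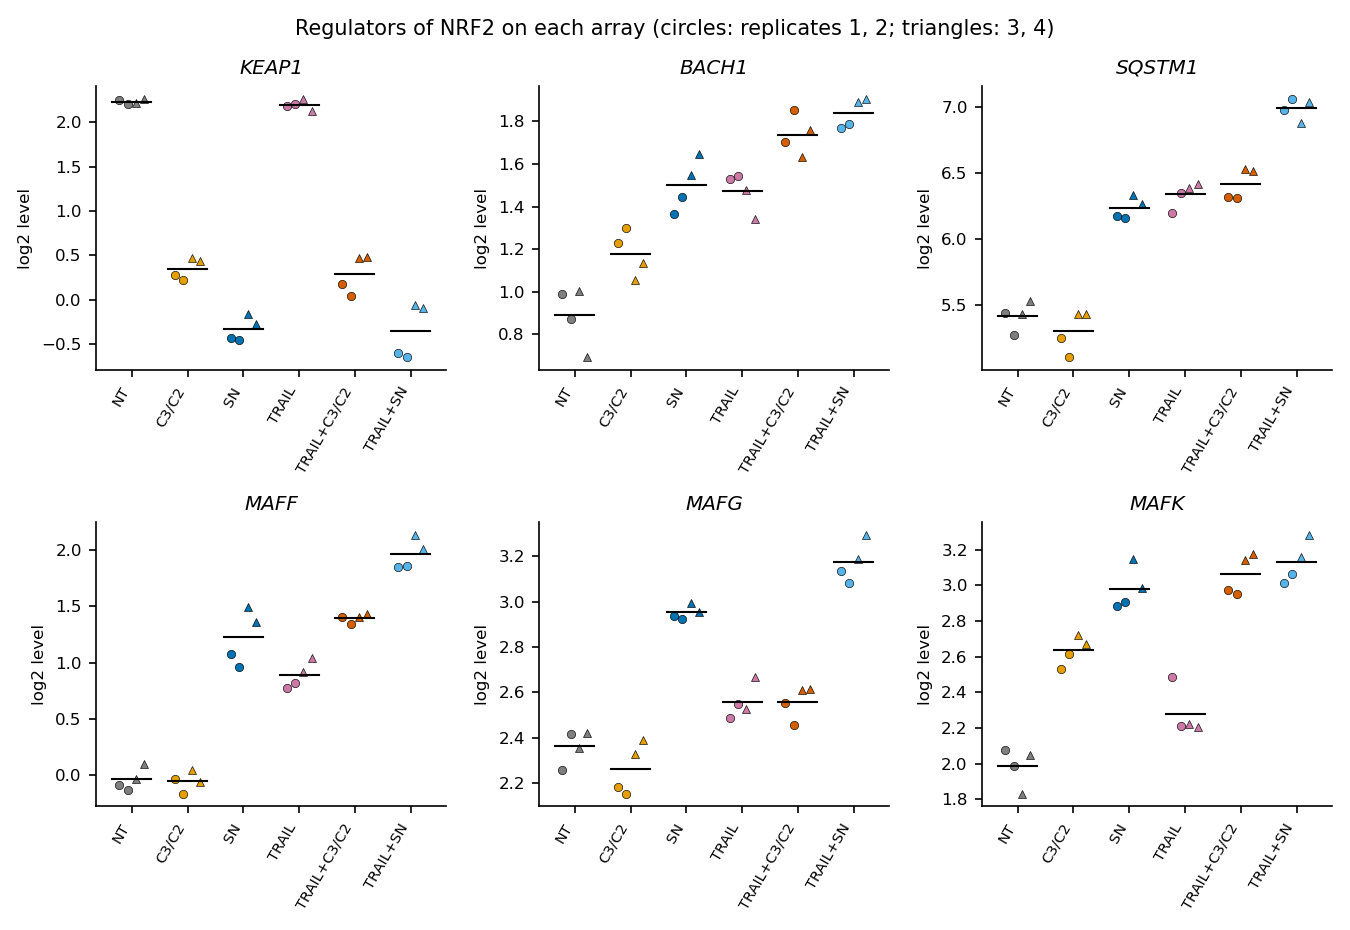
Level of 6 regulators of NRF2 on each of the 24 arrays, as log2 intensity relative to the array's 75th percentile (y axis, its own scale in each panel), in the 6 groups (x axis); circles are replicates 1 and 2, triangles replicates 3 and 4, lines group means. KEAP1 lies at 2.12 to 2.26 in NT and TRAIL and at -0.64 to 0.48 in the other 4 groups, while MAFF and SQSTM1 in C3/C2 overlap NT.

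Of 9 genes on the list of NRF2 regulators, 8 were tested. KEAP1 was the 1 called lower in each treatment but TRAIL, and 0, 2, 1, 3 and 0 were called higher with C3/C2, TRAIL+C3/C2, SN, TRAIL+SN and TRAIL in limma's test, with 3 and 5 higher at an unadjusted p under 0.05 in the C3/C2 and TRAIL comparisons that had no call: MAFF in each of the 3 with a call, MAFK in both co-treatments and SQSTM1 in TRAIL+SN. MAFF lost its call in TRAIL+C3/C2 with the spike-in probes. MAFK lost its call in TRAIL+C3/C2 with the array median (0.73), quantiles (0.96), the spike-in probes and normexp (0.97), and in TRAIL+SN with the array median (0.95) and the spike-in probes. The list's median difference was -0.06, 0.54, 0.60, 0.88 and 0.24 in that order, beside the medians of all genes given above. For this list and those that follow, the share of all genes past an unadjusted p was not computed. At an adjusted p under 0.05, 63%, 69.4%, 69.3%, 70.1% and 33.5% of all genes passed with C3/C2, TRAIL+C3/C2, SN, TRAIL+SN and TRAIL.

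Of 23 other genes known as NRF2 targets that were tested, 2 were called higher in each treatment but TRAIL, against 13.4% to 16.3% of all genes, and 1 with TRAIL, against 0.749%. These were SESN2, a sestrin that reins in growth signalling under stress, and CBR3, a carbonyl reductase, with CBR3 the 1 called with TRAIL. SLC7A11, the cystine importer that feeds glutathione synthesis, was the 1 called lower, with C3/C2 and with TRAIL+C3/C2, and 9 and 8 genes of the list were lower at an unadjusted p under 0.05 there. With SN and with TRAIL+SN 0 were called lower in limma's test, and 11 and 9 were lower at an unadjusted p under 0.05. The list's median difference ran from -0.21 with SN to 0.19 with TRAIL. SESN2 was at -1.23, -1.39, -1.15 and -1.06 in NT, at 0.78, 0.49, 0.75 and 0.72 with C3/C2 and at 1.93, 1.87, 1.83 and 1.64 with SN, and it rose 3.72-fold and 8.14-fold. CBR3 had no NT array well above background, and it was at least 2.19-fold higher with C3/C2 and at least 3.39-fold higher with TRAIL+C3/C2, measured against the dimmest signal above background. With normexp, which corrects the background with an offset of 50, its C3/C2 difference was 0.54 on the log2 scale, and the call was lost there and with SN (0.57), TRAIL (0.60) and TRAIL+SN (0.96). With TRAIL it was above background on 2 of 4 arrays. CBR3 passed the filter on dim probes through C3/C2, SN and the co-treatments only, so its place in these counts depends on them.

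SLC7A11 separated C3/C2 from SN. It was at 3.58, 3.68, 3.87 and 3.79 in NT, at 2.03, 2.08, 2.20 and 2.28 with C3/C2 and at 4.16, 4.37, 4.36 and 4.37 with SN, with no overlap between these groups. It fell by 1.58 ± 0.09 (SE) with C3/C2 (adjusted p = 3.66e-12) and rose by 0.58 with SN (adjusted p = 1.03e-05). TRAIL+SN lay 2.12 above TRAIL+C3/C2 on slide 4 (adjusted p = 1.92e-12).

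In glutathione synthesis and use, 4 of 21 genes were called higher with each treatment but TRAIL, against the same 13.4% to 16.3% of all genes, and 0 were called lower in limma's test, where 8, 6, 7 and 8 were lower at an unadjusted p under 0.05 with C3/C2, TRAIL+C3/C2, SN and TRAIL+SN. With TRAIL 0 were called and 9 were higher at that p. The list's median difference was 0.02, 0.20, 0.13, 0.23 and 0.19 with C3/C2, TRAIL+C3/C2, SN, TRAIL+SN and TRAIL. The 4 were CHAC1, which degrades glutathione, GLRX, a glutaredoxin that takes glutathione off proteins, and the glutathione transferases GSTM2 and GSTM4, of which GSTM4 was named after its values were seen. CHAC1 was at -0.32, -0.45, 0.64 and 0.78 in NT, at 1.59, 1.39, 2.08 and 2.06 with C3/C2 and at 5.20, 5.11, 5.36 and 5.12 with SN, and it rose 3.07-fold and 32.8-fold. GLRX rose by 2.00 ± 0.11 with C3/C2, and the rise with SN was 2.03. GSTM2 too had no NT array well above background, and it was at least 2.20-fold higher with C3/C2, but lost the call with normexp there (0.71), with SN (0.77) and with TRAIL+SN (0.99). It was well above background on 2 of 4 TRAIL+C3/C2 arrays and on 1 of 4 TRAIL+SN arrays, and it passed the filter on dim probes through C3/C2 and SN only. Genes of the GSTM family are close in sequence, so their probes may share targets.

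In the thioredoxin and peroxiredoxin system, 3 of 16 genes were called higher with each treatment but TRAIL: SESN2, SESN3 and the methionine sulfoxide reductase MSRB1, listed on the array as SEPX1. Of all genes 13.4% to 16.3% were called higher and 6.17% to 10.1% lower in these treatments. SEPX1 rose by 1.80 ± 0.10 with C3/C2, 2.17 with TRAIL+C3/C2, 1.43 with SN and 1.36 with TRAIL+SN, of which the last was under a fold change of 2 with the spike-in probes (0.84). SESN3 had no NT array well above background, and it was at least 5.49-fold higher with C3/C2, where normexp gave a log2 difference of 1.11. It lost the call with normexp in SN (0.79) and TRAIL+SN (0.87). SESN3 too passed the filter on dim probes through C3/C2, SN and the co-treatments only. Of this list 1, 1, 1 and 2 genes were called lower with C3/C2, TRAIL+C3/C2, SN and TRAIL+SN, which were TXNRD3 or TXNIP, the inhibitor of thioredoxin, named after their values were seen. The list's median difference was 0.01, -0.06, -0.23, -0.32 and 0.07 with C3/C2, TRAIL+C3/C2, SN, TRAIL+SN and TRAIL. TXNIP differed by -1.92 with SN and -1.87 with TRAIL+SN, and TXNRD3 by -1.04 with C3/C2.

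None of 10 pentose phosphate and NADPH enzymes was called in limma's test in any treatment, while 6, 5, 7, 7 and 5 were past an unadjusted p of 0.05 in either direction with C3/C2, TRAIL+C3/C2, SN, TRAIL+SN and TRAIL. Their median difference ran from -0.21 with TRAIL+SN to 0.05 with TRAIL. RPIA, which makes ribose 5-phosphate, had the largest difference, of -0.93 ± 0.09 with C3/C2 (adjusted p = 1.97e-08), which passed a fold change of 2 at -1.23 when arrays were scaled on their median and at -1.11 on the spike-in probes. Its TRAIL+C3/C2 difference did so as well (-1.12 and -1.49). TKT, a transketolase, differed by 0.32 with SN (adjusted p = 0.000257).

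In haem and iron handling, 2 of 10 genes were called higher with each treatment but TRAIL, against 13.4% to 16.3% of all genes, and 0 lower in limma's test, where 1 or 2 were lower at an unadjusted p under 0.05. The list's median difference was 0.02 with C3/C2 and 0.12 with SN. These were BLVRA, the biliverdin reductase that acts after haem oxygenase, and ALAS1, the first enzyme of haem synthesis. BLVRA was at -0.37, -0.39, -0.91 and -0.98 in NT, at a mean of 1.58 ± 0.073 (SD, n = 4) with C3/C2, at 1.59, 1.63, 1.43 and 1.26 with SN and at -0.44, -0.29, -0.77 and -0.85 with TRAIL. It rose by 2.24 ± 0.14 (SE) with C3/C2, 2.24 with TRAIL+C3/C2, 2.14 with SN and 1.95 with TRAIL+SN. ALAS1 rose by 1.33 ± 0.05, 1.47, 1.80 and 1.81 in the same order, and lost the call in TRAIL+C3/C2 with the spike-in probes (0.76). BLVRB, the second biliverdin reductase, rose by 0.45 with C3/C2 and 0.52 with SN and was not called.

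**Figure D4:**
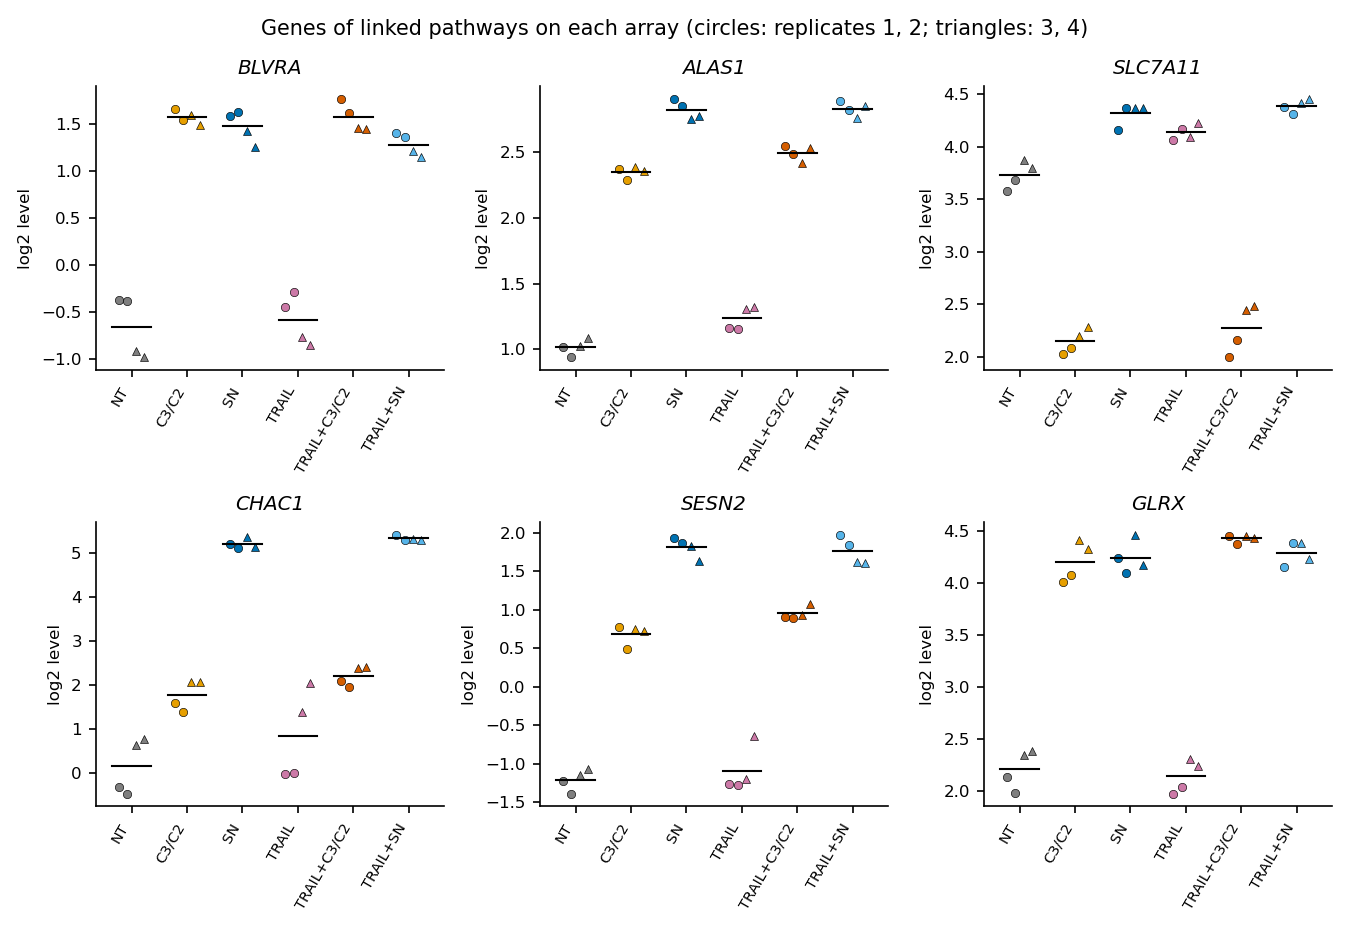
Level of BLVRA, ALAS1, SLC7A11, CHAC1, SESN2 and GLRX on each of the 24 arrays, as log2 intensity relative to the array's 75th percentile (y axis, its own scale in each panel), in the 6 groups (x axis); circles are replicates 1 and 2, triangles replicates 3 and 4, lines group means. SLC7A11 lies at 2.00 to 2.48 in both groups with C3/C2 and at 4.16 to 4.45 in both groups with SN, while BLVRA and GLRX are raised in all 4.

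Among enzymes and sources of superoxide and peroxide, NOX1, the NADPH oxidase of the colon epithelium, was called lower in each treatment but TRAIL. It was at 0.81, 0.80, 1.41 and 1.30 in NT, at -1.21, -1.16, -0.67 and -0.63 with C3/C2 and at -2.15, -2.10, -1.32 and -1.49 with SN, and it fell 3.99-fold and 7.16-fold. The other NOX1 probes fell by 2.23 and 1.74 on the log2 scale with C3/C2. The list had 1, 2, 0, 1 and 0 of 9 genes called higher and 2, 3, 1, 1 and 0 called lower with C3/C2, TRAIL+C3/C2, SN, TRAIL+SN and TRAIL, beside the shares of all genes given for the members, and its median difference ran from 0.09 with C3/C2 to 0.41 with TRAIL. That TRAIL median is the value of DUOX2, which did not pass limma's test there (adjusted p = 0.375). DUOX2 was well above background on 0 of 4 NT and 0 of 4 TRAIL arrays, so this median is not a measured shift. The other genes called lower were XDH, with both treatments that hold C3/C2, and DUOX1, with TRAIL+C3/C2, where none of the 4 arrays measured it well above background, and both were named after their values were seen. SOD2, the mitochondrial superoxide dismutase, rose by 1.77 ± 0.09 with TRAIL+C3/C2, against 0.85 with C3/C2 and 0.78 with TRAIL. DUOX2, a peroxide-making oxidase, likewise had no NT array well above background and was at least 2.49-fold higher with C3/C2, a call lost with normexp (0.60). It passed the filter on dim probes through C3/C2 and TRAIL+C3/C2 only, so its place in these counts depends on them. The call in TRAIL+SN was DUOX2 too, where it was above background on 0 arrays, so no fold is given.

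Over the 6 group means, the genes most like HMOX1 were ZCCHC14, KANK2 and GLIPR2, each with a Pearson r of 0.999, among 6414 candidate genes whose group means span at least 1 on the log2 scale. Over the 24 arrays r was between 0.933 and 0.976. The genes most like NQO1 were CC2D2A (0.998), UBXN4 (0.996) and TMLHE (0.996), with r over the arrays of 0.807, 0.900 and 0.932. These are descriptions over groups that share slides.

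The replicates differed in a regular way that the labels do not name. In all 6 groups HMOX1 was higher in both of replicates 3 and 4 than in both of replicates 1 and 2, by 0.21 to 0.53 on average. The same held for NQO1 in 5 of 6 groups, by 0.09 to 0.48 over all 6, and for OSGIN1 in 4. GCLM did so in 0 groups. With these pairs as a block in the fit, no call of a member changed.

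The scaling of the arrays decided the direction of the smaller differences. Scaling on the spike-in probes moved the median of all genes against NT to -0.10, -0.62, 0.05, -0.49 and -0.24 with C3/C2, TRAIL+C3/C2, SN, TRAIL+SN and TRAIL, and scaling on the array median moved it to -0.22, -0.25, -0.15, -0.16 and 0.13 in the same order. The rise of HMOX1 and the falls of NQO1 and OSGIN1 with C3/C2, SN and the co-treatments, and the rise of TXNRD1 with SN and the co-treatments, kept their direction in every setting tried, though the TXNRD1 value with TRAIL+C3/C2 came down to 0.09. HMOX1 with C3/C2 ranged from 1.18 to 1.69 and OSGIN1 from -2.36 to -1.79.

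**Figure D5:**
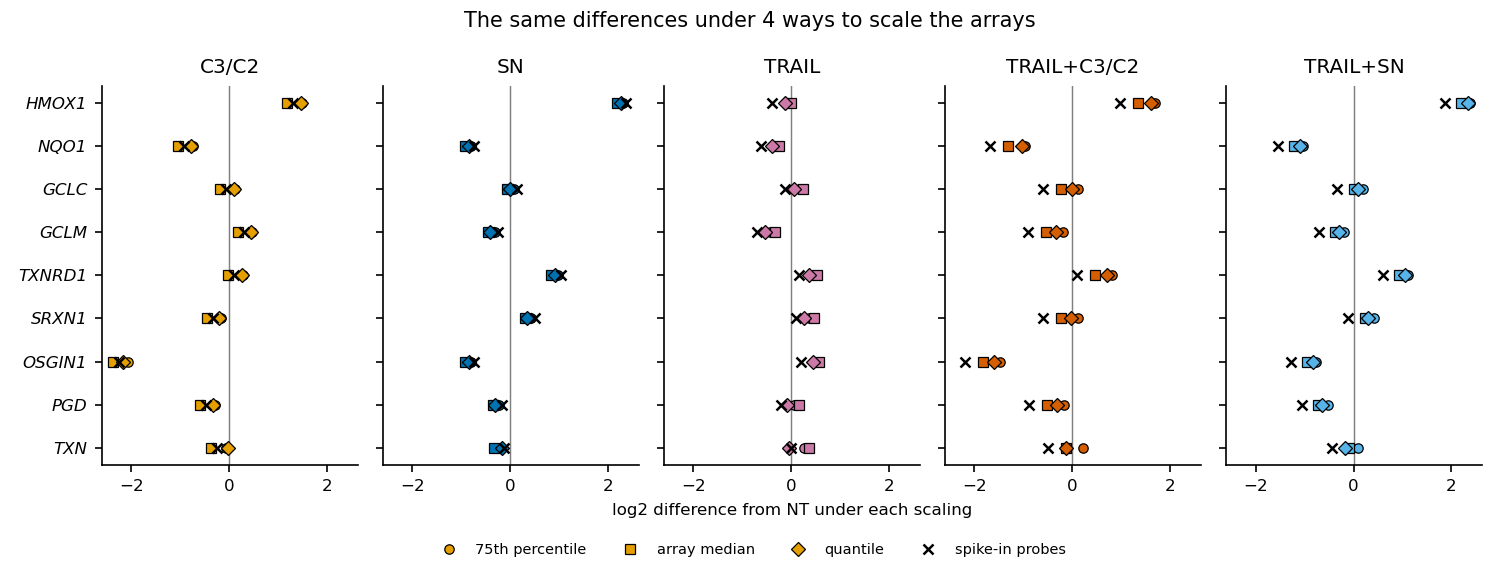
Log2 difference from NT (x axis) of the 9 genes (rows) in each of the 5 treatments (panels) when arrays are scaled on their 75th percentile (circles), their median (squares), by quantiles (diamonds) or on spike-in probes (crosses). GCLC, SRXN1 and TXN lie on both sides of 0 with TRAIL+C3/C2, where the spike-in values are -0.60, -0.60 and -0.50.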

How the data were processed

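RNA of 24 HT29 samples, 4 in each of 6 groups taken from the sample labels, was measured on 1-colour Agilent arrays. The authors deposited the scanner's processed intensity per spot, background-subtracted by Feature Extraction 10.7.3.1, with probe positions on hg19. They also deposited a table of processed values, in which all 24 columns of intensity lay within 1% of the scanner's intensity divided by the array's median; it was not used for the results, and its 24 columns of detection flags were not used.

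The log2 intensity minus each array's 75th percentile was taken, control and outlier spots were left out and spots of a probe averaged. A probe was kept if some group had all 4 arrays well above background (27953 of 50599 probes), with the probe of highest mean level standing for a gene. All 6 groups were fitted together in limma 3.58.1 (R 4.3.3) with Benjamini-Hochberg adjustment over 20700 genes, which was tested on simulated data. Named were all members, fixed regulators and, from each list, the 3 genes with the largest difference from NT, of which 1 is not reported here. The members and lists were chosen with earlier results of these data known. Depth does not apply to arrays, whose number limits the precision; the median standard error was 0.108. Alternatives were other scalings and backgrounds, probe filters, slide and replicate blocks, array weights and leaving out each array.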

Additional observations from a re-analysis of the deposited data

Results flagged for a closer look

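A sample lay far from the other 3 of its group in 4 of the 54 sets of a member and a group examined, and chance alone marks about 1 in 20 such sets. GCLC was at 2.73 in C3/C2 replicate 1, below 2.82 in the others, and at 2.85 in TRAIL+C3/C2 replicate 4, above 2.75 to 2.77. PGD was at 3.83 in TRAIL+SN replicate 4, against 3.49 to 3.53. TXN was at 7.73 in TRAIL+SN replicate 1, against 7.76 to 7.77.

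The interaction of TRAIL with SN was past an adjusted p of 0.05 for 4 of 9 members, against 23.2% of all genes. The interaction term in limma was 0.56 for GCLM (adjusted p = 0.0316), -0.27 for TXNRD1 (adjusted p = 0.0218), -0.37 for SRXN1 (adjusted p = 0.00145) and -0.35 for PGD (adjusted p = 0.0467). For SRXN1, TRAIL was above NT in 4 of 4 arrays, while TRAIL+SN and SN overlapped. The SRXN1 difference of TRAIL from NT came down to 0.09 over the settings tried. The size of the 4 terms under other scalings is not given here. The 4 groups lay on 4 slides, and the part of the slides in these terms was not tested.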

How the results depend on the processing

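On the spike-in probes 171 of 218 results kept their direction and their side of the threshold, against 201 on the array median, 211 under quantile normalization, 204 with normexp and 129 without a minimum fold change. On the spike-in probes, 2 members were called higher in SN against NT and 2 in SN against C3/C2, 0 in TRAIL+C3/C2 against NT and 1 in TRAIL+SN against NT; called lower were 0 in SN against TRAIL, 1 in TRAIL+C3/C2 against C3/C2, 2 in TRAIL+C3/C2 against NT and 3 in TRAIL+SN against NT. Directions that turned on the spike-in probes were, against NT, GCLC with C3/C2 (-0.055), TRAIL (-0.13), TRAIL+C3/C2 (-0.60) and TRAIL+SN (-0.33), SRXN1 with TRAIL+C3/C2 (-0.60) and TRAIL+SN (-0.10), TXN with TRAIL (-0.0095), TRAIL+C3/C2 (-0.50) and TRAIL+SN (-0.43), MAFG with TRAIL (-0.079) and TRAIL+C3/C2 (-0.52), TKT with TRAIL+C3/C2 (-0.19) and TRAIL+SN (-0.046), and ALAS1 (-0.054) and BLVRB (-0.11) with TRAIL. Against C3/C2, TRAIL+C3/C2 turned for HMOX1 (-0.33), PGD (-0.42), SRXN1 (-0.27), TXN (-0.25) and TXNRD1 (-0.015). Against SN, TRAIL+SN turned for GCLC (-0.47), GCLM (-0.47), HMOX1 (-0.51), OSGIN1 (-0.55), TXN (-0.30) and TXNRD1 (-0.44), and SN against TRAIL turned for GCLC (0.26) and PGD (0.062). On the array median, 1 member was called higher in TRAIL+SN and 2 lower in both C3/C2 and TRAIL+C3/C2, and the turned directions were BACH1 (-0.011), GCLC (-0.18) and TXNRD1 (-0.013) with C3/C2, and GCLC (-0.24), MAFG (-0.15), SRXN1 (-0.24) and TXN (-0.14) with TRAIL+C3/C2. Under quantile normalization 2 were called lower with TRAIL+C3/C2, and TXN turned with TRAIL (-0.046), TRAIL+C3/C2 (-0.14), TRAIL+SN (-0.17) and TRAIL+C3/C2 against C3/C2 (-0.11). With normexp, 0 members were called lower with TRAIL+SN and SESN3 turned with TRAIL (0.26). The shares of all genes called under these other scalings and backgrounds are not given here, so the counts of members called have no such comparison. Sign changes between values that both missed the threshold are not counted here. The cause was not tested.

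Without a minimum fold change, members past the adjusted p, higher and lower, were 4 and 4 for C3/C2, 3 and 5 for SN, 5 and 1 for TRAIL, 4 and 3 for TRAIL+SN and 3 and 2 for TRAIL+C3/C2, all against NT; 4 and 1 for SN against C3/C2, 4 and 1 for TRAIL+SN against TRAIL+C3/C2, 4 and 1 for TRAIL+C3/C2 against C3/C2, 1 and 1 for TRAIL+SN against SN, 2 and 4 for SN against TRAIL, and 1 and 3 for the TRAIL by SN interaction. Of all 20700 genes, 6729 were higher and 7013 lower at that adjusted p for SN against TRAIL. The TRAIL by SN interaction had 2268 and 2527. For the other comparisons, the values over all genes are given above. Leaving out 1 array at a time, the members called lower ranged from 1 to 2 with TRAIL+C3/C2 (2 without NT replicate 2 or TRAIL+C3/C2 replicate 4) and from 0 to 1 with TRAIL+SN (0 without NT replicate 3 or TRAIL+SN replicate 1 or 2).

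Arrays with the same replicate number deviated together in 57 of 60 pairs (r over 0.1, lowest 0.06), as did 42 of 60 pairs of unequal number within replicates 1 and 2 or within 3 and 4, against 0 of 120 pairs across these sets. Since 3 of the 60 pairs fell short of 0.1, the numbers were not taken as pairs. The study ran 2 experiments in duplicate, and whether these sets are those experiments was not tested. With the replicate block no call changed in 218 of 218 results, and HMOX1 with C3/C2 stayed at 1.48. A block of replicates 1 and 2 against 3 and 4, chosen after seeing the data, changed none either. Slide as a fixed block could be fitted for 49 of 218 results and kept the call of each, and slide as a random block kept all 218. Neither block can separate a treatment other than C3/C2 from its slide in a comparison with NT.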
